A study of Mus musculus with 10 samples.

Results

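Nuclear genes named for the subunits of respiratory complexes II to V were followed across mouse leukemias and normal marrow. They were taken by gene name as every entry beginning with Sdha, Sdhb, Sdhc or Sdhd in full, Uqcr, Cyc1, Cox4 to Cox8 or Atp5, without the 6 entries marked as pseudogenes by -ps, which gave 48 of 50600 deposited gene entries. By name alone, 4 of these were placed in complex II, 9 in complex III, 18 in complex IV and 17 in complex V. RefSeq lists Atp5s and Atp5sl as Dmac2l and Dmac2, so their place in complex V rests only on the deposited names. Of the 48 genes, 44 passed the filter on low counts.

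The respiratory chain of the inner mitochondrial membrane passes electrons from reduced cofactors to oxygen and pumps protons, and ATP synthase uses the proton gradient to make ATP. Complex II (succinate dehydrogenase) also serves the citric acid cycle and is wholly nuclear encoded, whereas complexes III (cytochrome bc1), IV (cytochrome c oxidase) and V (ATP synthase) join nuclear subunits to a few made from the mitochondrial genome. Stem cells of acute myeloid leukemia are known to depend on oxidative phosphorylation.

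RNA sequencing covered spleen tumors of 3 MLL::ENL mice (libraries NO, RL and L), 3 MLL::AF9 mice (2, 47 and 42) and 2 Cbfb::MYH11 mice (30 and 27), and cKit+ bone marrow of 2 WT mice, with 1 library a mouse on a C57BL/6 background. MLL::ENL tumors arose from WT stem and progenitor cells that carried a retroviral fusion gene and were transplanted, with WT marrow, into irradiated WT hosts, whose own or helper cells can remain in a spleen. MLL::AF9 mice were heterozygous for the fusion, were untreated, and their cells, like those of MLL::ENL, were selected on Mac1, Gr1 and cKIT. Cbfb::MYH11 mice carried Mx1-Cre, active in blood cells and other tissues after Poly(I:C), which was given at postnatal day 45, and were labelled cKit+ (27) or only cKit (30); whether the sequenced WT mice also had Poly(I:C) is not stated. Tissue and model history therefore go with condition and cannot be told apart from the fusion gene. Only MLL::AF9 2 and 42 are labelled male, MLL::ENL L carries no sex label and the other 7 mice are labelled female. In bulk RNA, fewer cells of a type and less RNA per cell cannot be told apart.

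Library totals ran from 12134917 to 20510574 counts. Levels are given as CPM, counts scaled to a common library total after TMM adjustment, and as TPM, which also divides by transcript length and alone allows 1 gene to be set against another. WT 1 stood apart: hemoglobin transcripts took 14.4% of its counts, against 3.98% in WT 2 and at most 0.958% in a tumor, and it had the highest CPM of all 10 libraries for 36 of the 44 genes. WT 1 exceeded WT 2 for 43 of 44, by a median of 0.975 on the log2 CPM scale, while the median over all 14875 genes tested was 0.00. The gap was 1.12 for the 30 genes with transcripts up to 1000 bases and 0.56 for the 14 longer ones, and over all genes of up to 1000 bases it was 0.73, so the medians and the calls against WT are also given without WT 1.

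**Figure D1:**
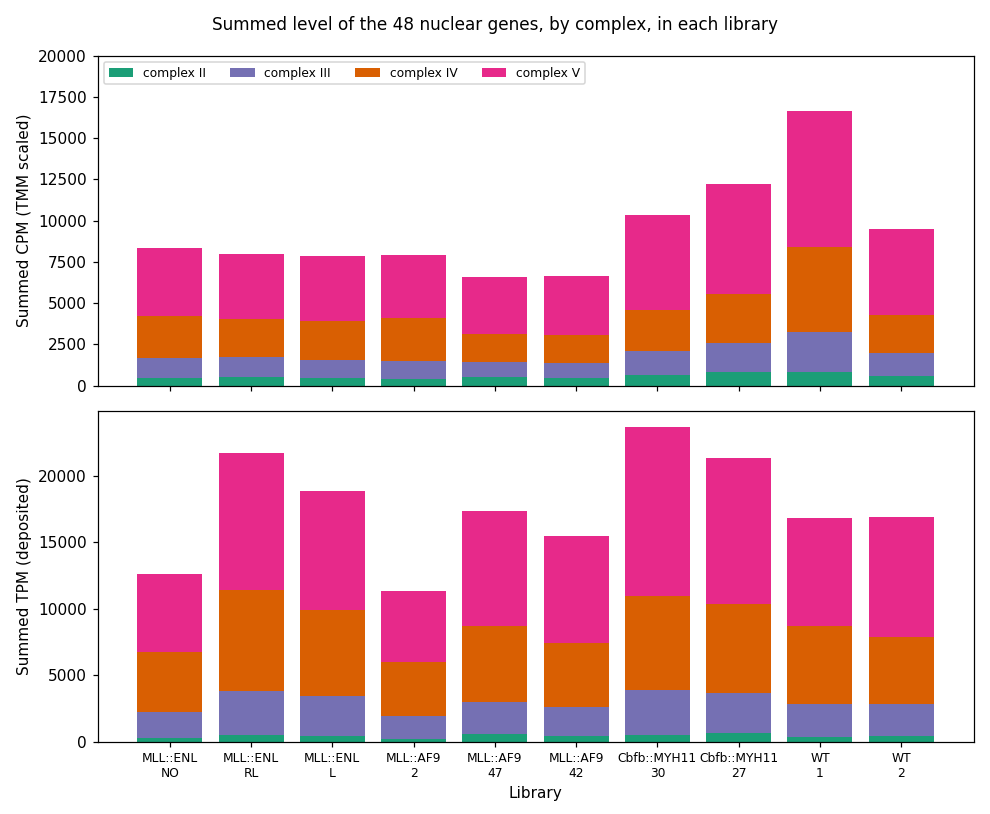
Stacked bars show the summed level of the 48 genes in each of the 10 libraries, as CPM (upper axis) and as TPM (lower axis), with 1 color for each complex. WT 1 is the highest bar in CPM, at 16630, and lies beside WT 2 in TPM, at 16800 against 16930.

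Together the 48 genes of complexes II to V held from 1.13% (MLL::AF9 2) to 2.37% (Cbfb::MYH11 30) of all TPM in a library. ATP synthase held the largest summed TPM of the 4 complexes in each library. Summed over 48 genes, the level was 17760 ± 4655 TPM in MLL::ENL tumors (SD, n = 3), 14740 ± 3093 TPM in MLL::AF9 tumors (SD, n = 3), 22510 ± 1666 TPM in Cbfb::MYH11 tumors (SD, n = 2) and 16860 ± 86.8 TPM in WT (SD, n = 2). The same sums in CPM were 8050 ± 232, 7030 ± 741, 11280 ± 1324 and 13070 ± 5035 in that order of conditions. Both scales placed the MLL tumors below the Cbfb::MYH11 tumors on average, whereas the place of WT differed between them.

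Within each complex, the gene with the highest mean TPM was Sdhd (153 TPM over the 10 libraries), a membrane anchor of complex II; Uqcr11 (567 TPM), a small subunit of complex III; Cox6a1 (1093 TPM), the form of subunit VIa found outside muscle; and Atp5b (2283 TPM), the catalytic beta subunit of ATP synthase. Cox4i1 (1026 TPM), the common form of subunit IV, and Atp5e (1594 TPM), the epsilon subunit of the F1 part, came next in complexes IV and V. Atp5b has 9 transcripts in the annotation, and its deposited mean length was only 693 to 837 bases, which raises its TPM relative to genes measured over a full-length transcript. The lowest that still passed the filter were Cox6a2 (1.43 TPM) and Atp5s (2.43 TPM), while Cox4i2, Cox7b2, Cox8b and Cox8c had at most 8, 1, 1 and 0 counts in any library.

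MLL tumors (MLL::ENL and MLL::AF9 weighted equally) had lower levels than Cbfb::MYH11 tumors of 7 genes: the catalytic subunit of complex II, a core protein and cytochrome c1 of complex III, and the alpha and beta subunits, the delta subunit and a c-ring gene of ATP synthase. No gene of complex IV passed in either direction, and no gene of any complex was higher. The 7 make up 15.9% of the 44, while 12.4% of all genes tested were lower by the same rule (edgeR, adjusted p under 0.05), so this count alone lies near the background. DESeq2 called 9 lower (15.2% of all genes) and limma-voom 7 (13.5%), and 12 were lower when the edgeR p was left unadjusted (18.5%). None was higher by edgeR, against 13.2% of all genes. With the p unadjusted 1 was higher (20.3% of all genes), DESeq2 called 1 higher (19.2%) and limma-voom 0 (10.6%). The median log2 fold change was −0.38 over the 44 genes and 0.08 over all genes. All 6 MLL libraries lay below both Cbfb::MYH11 libraries for 16 of the 44 (36.4%; 20.4% of all genes) and above both for 1, Atp5sl (2.27%; 19.5% of all genes). By complex, 1 of 4 passed in complex II, 2 of 9 in complex III, 0 of 14 in complex IV and 4 of 17 in complex V, with median log2 fold changes of −0.44, −0.57, −0.17 and −0.34.

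**Figure D2:**
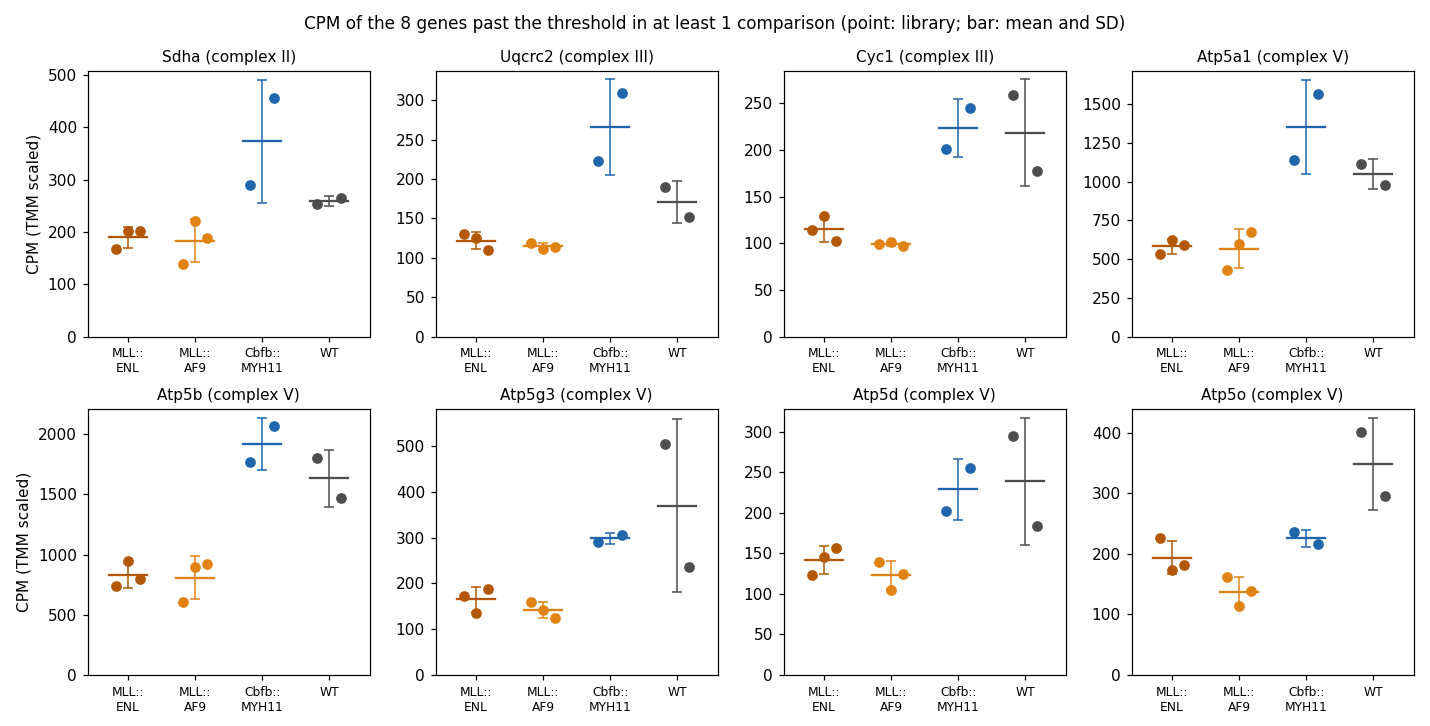
Each panel plots 1 gene in CPM, 1 point a library, with the mean and SD of each condition, for the 8 genes that passed in at least 1 comparison. For 7 of them, Atp5o being the exception, all MLL points lie under both Cbfb::MYH11 points, and for Cyc1 the MLL points end at 129 CPM while the Cbfb::MYH11 points begin at 201 CPM.

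Sdha, the flavoprotein that oxidizes succinate, had 167, 201 and 202 CPM in MLL::ENL (in the order NO, RL, L, as below), 139, 221 and 189 CPM in MLL::AF9 (2, 47, 42), 290.1 and 456 CPM in Cbfb::MYH11 (30, 27) and 253 and 266 CPM in WT (1, 2). The MLL values all lay under the WT pair, and the Cbfb::MYH11 values over it, with Cbfb::MYH11 27 far above the rest. MLL tumors were lower than Cbfb::MYH11 tumors by edgeR (log2 fold change −1.0, SE 0.25, adjusted p = 0.0162), and on the TPM scale the groups overlapped. Sdhb, the iron-sulfur subunit, had 94.3, 65.3 and 71.7 CPM in MLL::ENL, 79.4, 60.4 and 64.7 CPM in MLL::AF9, 72.7 and 89.7 CPM in Cbfb::MYH11 and 131 and 93.6 CPM in WT. Sdhd had 103, 176 and 99.4 CPM in MLL::ENL, 105, 165 and 168 CPM in MLL::AF9, 167 and 182 CPM in Cbfb::MYH11 and 281 and 159 CPM in WT. In both genes MLL and Cbfb::MYH11 libraries overlapped and WT 1 was the highest library. Sdhb, Sdhc (the other membrane anchor) and Sdhd did not pass, with adjusted p of 0.175 to 0.651 from edgeR.

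Uqcrc2, a core protein of complex III, had 131, 125 and 110.4 CPM in MLL::ENL, 119, 111 and 114 CPM in MLL::AF9, 223 and 309 CPM in Cbfb::MYH11 and 189 and 151.5 CPM in WT. The 6 MLL libraries spanned a narrow range, and the Cbfb::MYH11 libraries were higher than all 8 others. Its log2 fold change was −1.17 (SE 0.20, adjusted p = 0.00284 from edgeR), the smallest adjusted p of the 44 genes. RSEM had assigned it fractional counts in 7 libraries, so some of its reads are shared with other sequences. Cyc1, cytochrome c1, which hands electrons to cytochrome c, had 114, 129 and 103 CPM in MLL::ENL, 99.0, 101.5 and 96.6 CPM in MLL::AF9, 201 and 245 CPM in Cbfb::MYH11 and 259 and 178 CPM in WT. Here Cbfb::MYH11 and WT libraries covered the same range and all MLL libraries were beneath them, with a log2 fold change of −1.06 for MLL against Cbfb::MYH11 (SE 0.21, adjusted p = 0.00553 from edgeR).

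Uqcrc1, the other core protein, had 251, 272 and 214 CPM in MLL::ENL, 176, 272 and 183 CPM in MLL::AF9, 322 and 399 CPM in Cbfb::MYH11 and 423 and 391 CPM in WT. Uqcrfs1, the Rieske iron-sulfur protein, had 139, 119 and 91.8 CPM in MLL::ENL, 94.4, 75.3 and 115 CPM in MLL::AF9, 148 and 165 CPM in Cbfb::MYH11 and 256 and 171 CPM in WT. In both, all MLL libraries were under both Cbfb::MYH11 libraries, but neither passed (edgeR log2 fold changes −0.67 and −0.57, adjusted p = 0.0685 and 0.126). Uqcr11 had 108, 104 and 130.4 CPM in MLL::ENL, 116, 76.3 and 76.9 CPM in MLL::AF9, 142 and 165 CPM in Cbfb::MYH11 and 284 and 106 CPM in WT, with MLL again under Cbfb::MYH11 and WT 1 far above all others. It did not pass (adjusted p = 0.222 from edgeR), nor did Uqcr10, Uqcrb, Uqcrh and Uqcrq (0.202 to 0.89).

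In complex IV, Cox4i1, which starts the assembly of the enzyme with Cox5a, had 604, 432 and 446 CPM in MLL::ENL, 614, 331 and 414 CPM in MLL::AF9, 519 and 725 CPM in Cbfb::MYH11 and 1213 and 531 CPM in WT. Cox5a had 81.8, 102 and 83.9 CPM in MLL::ENL, 105, 134 and 113 CPM in MLL::AF9, 80.8 and 90.5 CPM in Cbfb::MYH11 and 227 and 115 CPM in WT. Cox6a1 had 332, 392 and 321 CPM in MLL::ENL, 308, 225 and 253 CPM in MLL::AF9, 513 and 488 CPM in Cbfb::MYH11 and 797 and 358 CPM in WT. For Cox4i1 and Cox5a the MLL and Cbfb::MYH11 libraries overlapped, for Cox6a1 they did not, and none of the 3 passed (adjusted p = 0.458, 0.523 and 0.0985 from edgeR).

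In ATP synthase, Atp5a1 and Atp5b, which form the catalytic ring of F1, had the largest fold differences among the genes that passed. Atp5a1 had 530.1, 626 and 591 CPM in MLL::ENL, 429, 598 and 677 CPM in MLL::AF9, 1138 and 1564 CPM in Cbfb::MYH11 and 1116 and 978 CPM in WT, a log2 fold change of −1.23 for MLL against Cbfb::MYH11 (SE 0.26, adjusted p = 0.00693 from edgeR). Atp5b had 736, 944.5 and 799 CPM in MLL::ENL, 602, 895 and 924 CPM in MLL::AF9, 1766 and 2069 CPM in Cbfb::MYH11 and 1798 and 1467 CPM in WT, with a log2 fold change of −1.23 (SE 0.26, adjusted p = 0.00806 from edgeR). For both genes every MLL library was below every Cbfb::MYH11 and WT library. Atp5g3, which encodes the same mature c-ring subunit as its paralogs, fell to 173.5, 135.5 and 188.5 CPM in MLL::ENL and 158.5, 141.5 and 124.5 CPM in MLL::AF9, against 289.9 and 306 CPM in Cbfb::MYH11, with 503.5 and 236 CPM in WT. Its 2 WT libraries stood further apart than any other pair of its values within a condition, and the log2 fold change of MLL against Cbfb::MYH11 was −0.96 (SE 0.28, adjusted p = 0.0325 from edgeR). Atp5d, the delta subunit of the central stalk, had 123, 146 and 157 CPM in MLL::ENL, 139.5, 105 and 125 CPM in MLL::AF9, 202 and 255 CPM in Cbfb::MYH11 and 294 and 184 CPM in WT. MLL libraries again lay below both Cbfb::MYH11 libraries (log2 fold change −0.79, SE 0.24, adjusted p = 0.0374 from edgeR). Cbarp overlaps the deposited position of Atp5d. The other 13 genes of complex V, among them Atp5c1 (gamma) and Atp5e of F1 and Atp5f1, Atp5h, Atp5j and Atp5o of the peripheral stalk, did not pass, with adjusted p of 0.11 to 0.953 from edgeR.

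Transcript length ran with the size of these differences. The 14 genes with transcripts over 1000 bases had a median log2 fold change of −0.57 in MLL against Cbfb::MYH11 and 4 of the 7 calls (Sdha, Cyc1, Uqcrc2 and Atp5a1), and the 30 shorter genes had −0.18 and 3 calls. Of these 3, Atp5b (−1.23) was classed as short by its deposited mean length of 693 to 837 bases. Atp5d, at 922 to 931 bases, lay near the cut, so the division of calls depends on these lengths. All genes tested gave 0.07 and 0.14 in those length classes. The mean fragment length differed between libraries (199 to 272 bases, with 1 library of each condition in the group of long fragments). With the class of long or short fragments (cut at 240 bases) as a term of the fit, a choice made after seeing the data, 8 genes were lower. Of all genes tested, 1692 were lower with that term and 1847 without it. On the TPM scale, 6 of the 7 still had all MLL libraries below both Cbfb::MYH11 libraries, the exception being Sdha.

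**Figure D3:**
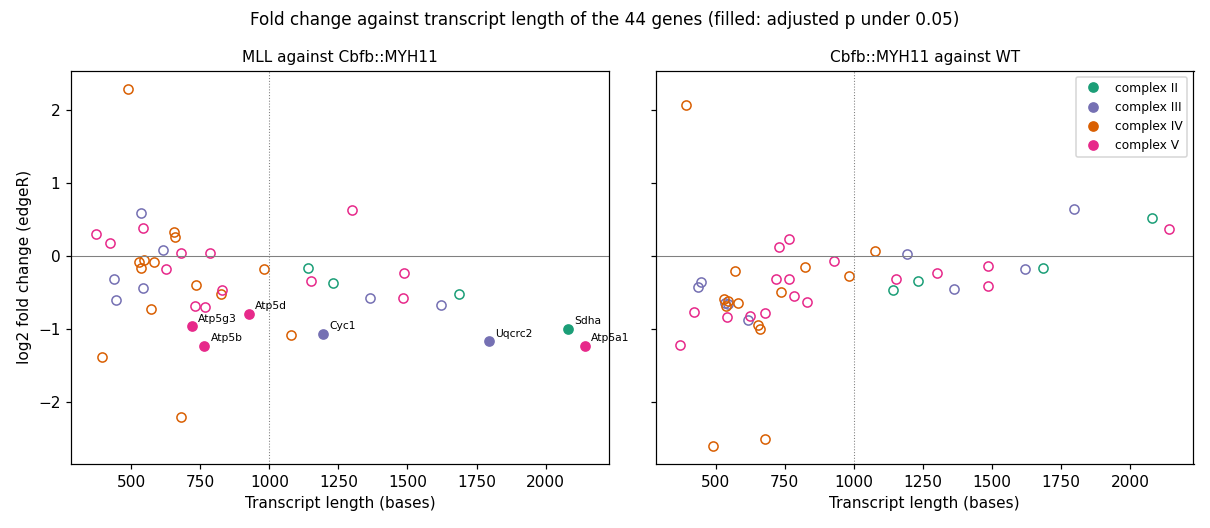
Points are the 44 genes, placed by transcript length in bases (horizontal) and log2 fold change (vertical), for MLL against Cbfb::MYH11 on the left and Cbfb::MYH11 against WT on the right, filled where the edgeR adjusted p was under 0.05. The dotted line marks 1000 bases. In the right panel the 30 shorter genes have a median of −0.62 and the 14 longer ones −0.17.

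Leaving out Cbfb::MYH11 27 left 0 of the 7 calls (the lone Cbfb::MYH11 library is then assumed to vary like the other groups; the 7 log2 fold changes ran from −0.62 for Atp5d to −1.12 for Atp5b, with the smallest adjusted p, 0.0618 from edgeR, for Uqcrc2). Without any other single library 5 to 9 genes passed. Neutrophil markers moved with this comparison: the summed CPM of all 8 on the list was 6283 to 154500 in the MLL libraries and 346 in both Cbfb::MYH11 libraries. The summed mast cell and basophil markers (4 genes) were at 3.16 to 169 CPM in the MLL libraries and 1752 and 2085 CPM in Cbfb::MYH11. Fcer1a was at 0 in all MLL libraries. Kit, one of the selection markers, was at 31.3 to 119 CPM in the MLL libraries and 187 and 290 CPM in Cbfb::MYH11. Cd34, the other gene of the progenitor list, went the other way, as the median log2 fold change of the 2 genes was 0.67. Summed, the 2 were at 35.4 to 402 CPM in the MLL libraries and 192.5 and 299.7 CPM in Cbfb::MYH11. The part of cell composition in these differences was not tested.

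Promoter windows, the 250 bases before the transcription start in RefSeq (GRCm38.p6), were matched for 37 of the 48 genes and for 4 of the 7 that passed, and these 4 are shown because they changed in the same direction. Capitals mark CCAAT, the core bound by NF-Y, and CACGTG, the E-box bound by MYC and its relatives, on either strand. Atp5b lies at chr10:128083057-128083306 (plus strand), Sdha at chr13:74350241-74350490 (minus strand), Atp5g3 at chr2:73911327-73911576 (minus strand) and Atp5d at chr10:80142025-80142274 (plus strand).
Atp5b: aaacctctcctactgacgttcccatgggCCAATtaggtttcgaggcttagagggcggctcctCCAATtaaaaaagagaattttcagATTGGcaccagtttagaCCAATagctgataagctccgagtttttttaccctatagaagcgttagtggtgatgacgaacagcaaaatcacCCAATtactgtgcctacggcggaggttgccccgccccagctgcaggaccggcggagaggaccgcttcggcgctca
Sdha: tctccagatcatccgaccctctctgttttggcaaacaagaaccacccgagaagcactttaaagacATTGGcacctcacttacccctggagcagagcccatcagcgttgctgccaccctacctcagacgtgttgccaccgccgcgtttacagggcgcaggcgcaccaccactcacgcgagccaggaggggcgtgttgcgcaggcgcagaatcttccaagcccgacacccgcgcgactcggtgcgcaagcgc
Atp5g3: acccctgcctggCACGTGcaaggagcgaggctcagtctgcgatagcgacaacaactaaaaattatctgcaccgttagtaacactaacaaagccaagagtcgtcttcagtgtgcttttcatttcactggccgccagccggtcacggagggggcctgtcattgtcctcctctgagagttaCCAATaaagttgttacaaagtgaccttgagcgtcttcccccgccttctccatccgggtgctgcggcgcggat
Atp5d: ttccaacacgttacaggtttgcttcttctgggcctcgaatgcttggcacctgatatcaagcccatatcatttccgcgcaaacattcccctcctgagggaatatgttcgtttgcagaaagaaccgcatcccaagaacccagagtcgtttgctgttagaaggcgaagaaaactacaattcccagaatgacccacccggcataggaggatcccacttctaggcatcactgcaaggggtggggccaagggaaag
CCAAT occurred 5 times in the Atp5b window, 1 time each in those of Sdha and Atp5g3 and not in that of Atp5d. It was present in 21 of the 37 windows (56.8%) and in 33.8% of all 32851 windows in the table. CACGTG was found in Atp5g3 and in 5 of 37 windows (13.5%; 6.02% of all windows). Of motifs named for regulators of respiratory genes, TGCGCATGC (NRF1) was in 2 of 37 windows (5.41%; 1.28% of all), CCGGAAG (ETS factors, such as GABPA) in 8 (21.6%; 6.91% of all) and AAGATGGCG (YY1) in 0 (0.606% of all), and none of these 3 was in the 4 windows printed. For the 4 genes with several windows only that nearest the deposited 5′ end was counted, and with any window counted YY1 was in 2 genes and ETS in 9, while the shares over all use every window. For Atp5d the nearest window lay 3643 bases from the deposited 5′ end. CCAAT and CACGTG were added after the windows had been read, and a match by letters is a description of sequence only.

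Against WT marrow, the MLL::AF9 tumors had the lowest summed CPM of these genes and were the only tumors in which any passed. Atp5o, a peripheral stalk subunit of ATP synthase, had 161.5, 114 and 138 CPM in MLL::AF9, 225, 174 and 182 CPM in MLL::ENL, 236 and 216 CPM in Cbfb::MYH11 and 401 and 295 CPM in WT. WT was above all 8 tumors, and MLL::AF9 was below all other libraries. It was lower in MLL::AF9 against WT by edgeR (log2 fold change −1.34, SE 0.26, adjusted p = 0.0337). Its entry on chromosome 16 spans 91684398 to 91931687, where Cryzl1, Donson and Itsn1 also lie, so its reads are less certain than those of an isolated gene. Cyc1 was lower as well (edgeR log2 fold change −1.14, SE 0.24, adjusted p = 0.0439), although its TPM overlapped. The calls of Cyc1 and of Atp5o, MLL::AF9 against WT, were both lost without WT 1 (for Atp5o −1.12, adjusted p = 0.273 from edgeR, and for Cyc1 −0.87, adjusted p = 0.338) and without WT 2 (for Atp5o adjusted p = 0.0745 and for Cyc1 0.0752), where 1 other gene passed. Leaving out either Cbfb::MYH11 library, MLL::AF9 47 or 42, or MLL::ENL RL or L also left 0 genes. Without WT 1 only 15 of all genes tested were lower.

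Thus 2 of 44 genes were lower in MLL::AF9 than in WT (4.55%; 2.08% of all genes by edgeR) and 0 higher (0.807% of all genes), and 0 were higher with the p unadjusted (12.3% of all genes), by DESeq2 (8.15%) or by limma-voom (0.995%). The direction was broad: 42 of 44 had a negative log2 fold change, 26 were lower at unadjusted p under 0.05 (12.2% of all genes), and the median was −0.88 against 0.09 over all genes. MLL::AF9 libraries lay below both WT libraries for 20 genes (45.5%; 21.2% of all genes) and above both for 0 (20.4% of all genes). Without WT 1 the median was −0.33, with 33 negative, and without WT 2 it was −1.25, with 43 negative. The medians by complex were −0.66 (II), −1.05 (III), −0.86 (IV) and −0.88 (V). DESeq2 called 11 genes lower (6.53% of all genes) and limma-voom 5 (3.80%).

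In MLL::ENL against WT, 0 of 44 genes passed by edgeR in either direction (1.55% of all genes were lower and 0.551% higher), while DESeq2 called 7 lower (6.04% of all genes) and limma-voom 1 (3.31%). With the p unadjusted, 14 were lower (11.3% of all genes) and 0 higher (10.7%). Cyc1 (−0.92, adjusted p = 0.0776 from edgeR) and Atp5g3 (−1.16, adjusted p = 0.0876) came nearest, and 40 of 44 log2 fold changes were negative, with a median of −0.61 against 0.02 over all genes. Libraries did not overlap, with MLL::ENL lower, for 16 genes (36.4%; 23.1% of all genes), and with MLL::ENL higher for 0 (21.2% of all genes). Without WT 1 the median was −0.12 and 24 of 44 were negative. Without WT 2 it was −1.05 and 43 were negative.

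In Cbfb::MYH11 against WT, 0 of 44 genes passed by edgeR in either direction (6.92% of all genes were lower and 3.54% higher), while DESeq2 called 2 lower (11.6% of all genes) and limma-voom 0 (6.04%). With the p unadjusted, 2 were lower (16% of all genes) and 1 higher (11.4%), shares below those of all genes. The 3 were Cox5a, an early-assembled core subunit of complex IV (−1.0, adjusted p = 0.0866 from edgeR), Cox6b2 (−2.60, adjusted p = 0.105) and Uqcrc2 (0.64, adjusted p = 0.151). Cox5a had 80.8 and 90.5 CPM in Cbfb::MYH11 against 227 and 115 CPM in WT, so that its gap to WT 2 was small. The median log2 fold change was −0.42, against −0.01 over all genes, and it was 0.17 without WT 1 and −0.70 without WT 2, which turned the direction of the set on 1 library. Libraries did not overlap for 14 genes with Cbfb::MYH11 lower (31.8%; 31.9% of all genes) and for 4 with Cbfb::MYH11 higher (9.09%; 28.8% of all genes), the 4 being Sdha, Uqcrc2, Atp5a1 and Cox7a1. Of the 7 genes that were lower in MLL against Cbfb::MYH11, the log2 fold changes here were 0.64 for Uqcrc2, 0.53 for Sdha, 0.37 for Atp5a1, 0.23 for Atp5b, 0.03 for Cyc1, −0.06 for Atp5d and −0.31 for Atp5g3. None passed, and the signs of Atp5d and Atp5g3 turned without WT 1 and that of Cyc1 without WT 2, without Cbfb::MYH11 27 and with the stricter filter. Erythroid markers (8 genes) summed to 28.7 to 10200 CPM in the tumors and to 206900 and 42080 CPM in WT. Eosinophil markers (4 genes, Ear1 at 0 in all tumors) summed to 4.02 to 40.8 CPM in the tumors and 18920 and 7351 CPM in WT. Neutrophil markers (8 genes) summed to 6283 to 154500 CPM in MLL, 346 in both Cbfb::MYH11 libraries and 140000 and 86860 CPM in WT, and edgeR called all 8 lower in Cbfb::MYH11 against WT (median log2 fold change −9.12). Mast cell and basophil markers (4 genes) summed to 1752 and 2085 CPM in Cbfb::MYH11 and 99.0 and 60.6 CPM in WT. They did not all move together, as edgeR called 2 of the 4 higher and 1 lower in Cbfb::MYH11 against WT. The part of these cells in the differences from WT was not tested.

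**Figure D4:**
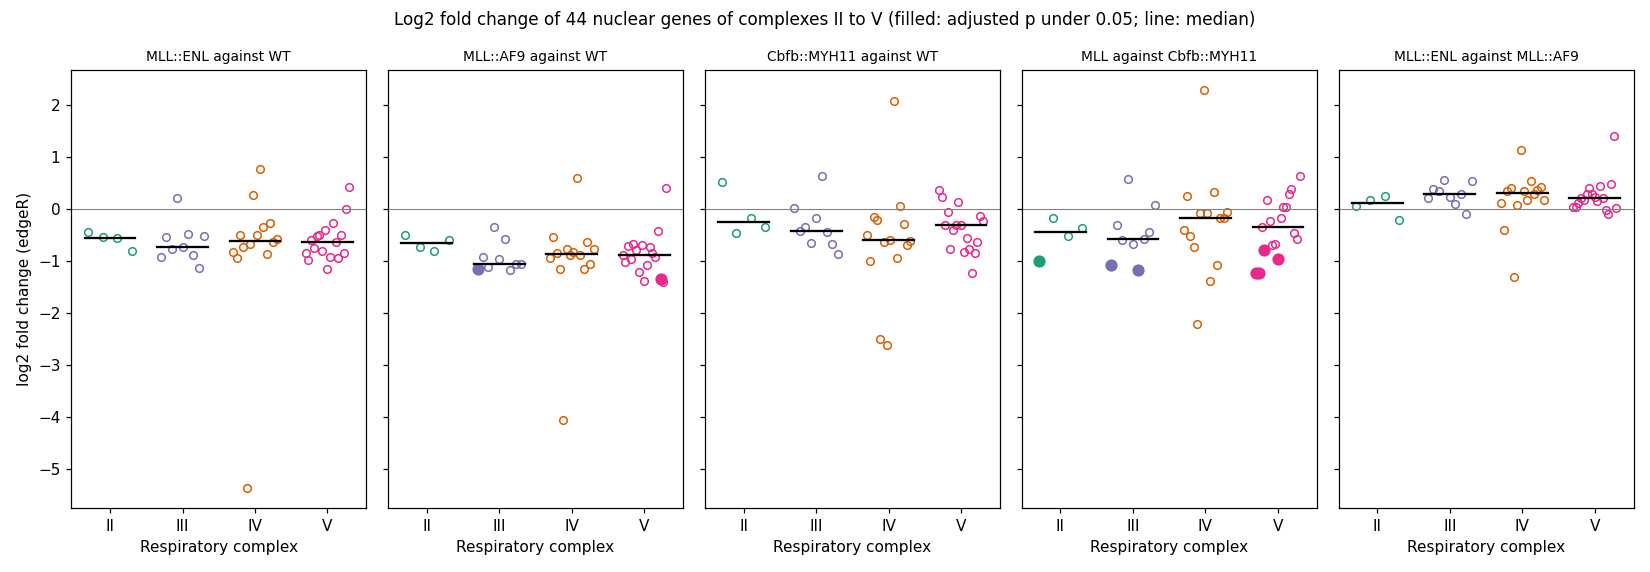
Each point is 1 of the 44 genes, placed by complex (horizontal) and by edgeR log2 fold change (vertical) in the 5 comparisons, filled where the adjusted p was under 0.05, and black lines are medians. Filled points are 2 in MLL::AF9 against WT and 7 in MLL against Cbfb::MYH11, all under 0.

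The scale decided the sign of the median of the set against WT in MLL::ENL and Cbfb::MYH11. In MLL::AF9 it was negative on both scales. In TPM, which are not TMM-scaled, the median log2 ratio of the 44 genes was 0.13 in MLL::ENL, −0.22 in MLL::AF9 and 0.34 in Cbfb::MYH11, each against WT, while the median of all genes tested moved by 0.61, 0.67 and 0.61 (log2 of TPM plus 0.1). Relative to that shift the 44 genes were at −0.48, −0.89 and −0.28. On the edgeR scale relative to its own median of all genes they were at −0.63, −0.96 and −0.40. For MLL against Cbfb::MYH11 the TPM median was −0.44, with 35 of 44 negative and 0.06 for all genes.

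MLL::ENL and MLL::AF9 tumors were not told apart by any gene of the set. By edgeR 0 of 44 passed (0% of all genes were higher and 0.0134% lower), while 1 was higher with the p unadjusted (2.94% of all genes), DESeq2 called 1 higher (0.684%) and limma-voom 0 (0%). That gene was Atp5s, whose product is named for a coupling factor of ATP synthase, with 4.36, 3.02 and 4.69 CPM in MLL::ENL, 1.13, 1.79 and 1.63 CPM in MLL::AF9, 4.22 and 3.14 CPM in Cbfb::MYH11 and 4.19 and 3.87 CPM in WT. All MLL::AF9 libraries were below all others, with at most 90 counts in a library, and MLL::ENL against MLL::AF9 gave an edgeR log2 fold change of 1.40 (adjusted p = 0.347). Most genes leaned the same way, with 38 of 44 positive and a median of 0.22, against 0.01 over all genes. Without MLL::AF9 2 the median was 0.41, against 0 over all genes. That library also held the most T cell and B cell marker counts, at 149.8 and 902 CPM summed over 4 genes each, against 1.67 to 5.29 and 33.8 to 127 CPM in MLL::ENL (median log2 fold changes −4.33 and −2.90 for MLL::ENL against MLL::AF9), and their part was not tested.

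Among tissue-specific forms of complex IV subunits, Cox6b2, a form of subunit VIb known mainly from testis, had the highest CPM. Cox6b2 had 46.2, 53.8 and 58.9 CPM in MLL::ENL, 3.25, 36.4 and 32.6 CPM in MLL::AF9, 10.15 and 4.36 CPM in Cbfb::MYH11 and 65.1 and 23.4 CPM in WT. Both Cbfb::MYH11 libraries and MLL::AF9 2 were low, and the other 7 libraries were at 23.4 CPM or more. As a share of the TPM of Cox6b1 and Cox6b2 together, Cox6b2 made up 26.99%, 33.2% and 40.1% in MLL::ENL tumors, 2.16%, 30.9% and 30.1% in MLL::AF9 tumors, 8.94% and 3.25% in Cbfb::MYH11 and 22.3% and 19.7% in WT. The log2 fold change of MLL against Cbfb::MYH11 was 2.30 (SE 0.83, adjusted p = 0.07 from edgeR) and became 2.53 (adjusted p = 0.00539 from edgeR) without MLL::AF9 2. Cox6b2 passed under only 3 of 20 alternatives, which were that omission, DESeq2 and no filter on low counts. Without 1 library its log2 fold change ran from 1.81 to 3.03.

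**Figure D5:**
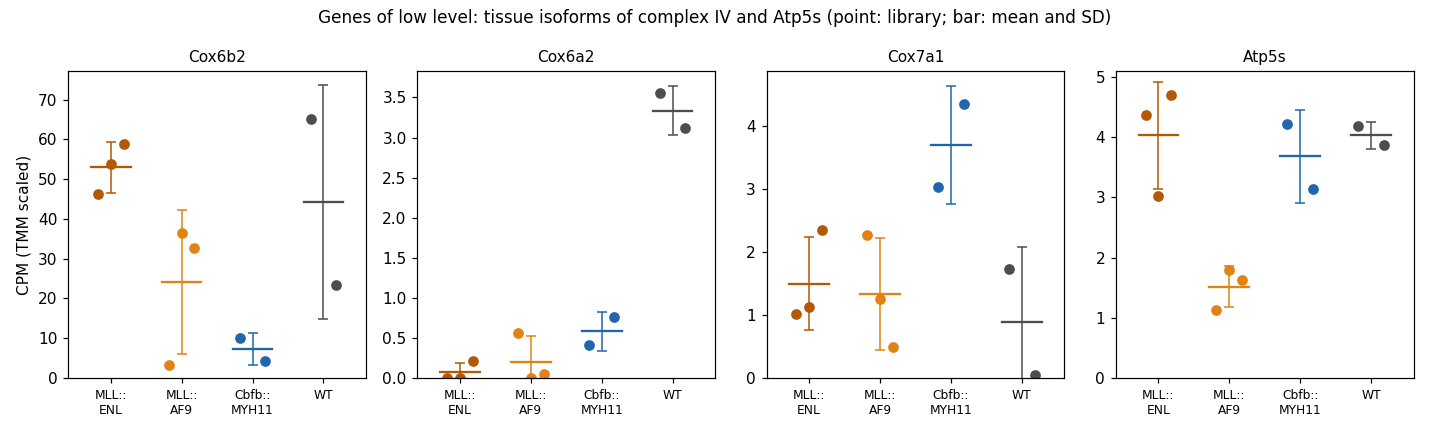
CPM of Cox6b2, Cox6a2, Cox7a1 and Atp5s is plotted with 1 point a library and the mean and SD of each condition. Cox6b2 is at 3.25 CPM in MLL::AF9 2 and at 10.15 and 4.36 CPM in Cbfb::MYH11, and Cox6a2 is above 3 CPM only in the 2 WT libraries.

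Cox6a2, the heart and muscle form of subunit VIa, had 0, 0 and 4 counts in MLL::ENL tumors, 8, 0 and 1 in MLL::AF9 tumors, 8 and 13 in Cbfb::MYH11 and 45 and 62 in WT. WT lay above all tumors, yet no comparison passed by edgeR (adjusted p = 0.108 for MLL::ENL and 0.15 for MLL::AF9 against WT), and Itgad overlaps its position. MLL::ENL against WT passed under 3 of 19 alternatives (DESeq2, limma-voom and no filter) and MLL::AF9 against WT under 1 (limma-voom), and neither passed without WT 1. Cox7a1, the muscle form of subunit VIIa, had 11, 25 and 45 counts in MLL::ENL tumors, 32, 25 and 10 in MLL::AF9 tumors, 59 and 75 in Cbfb::MYH11 and 22 and 1 in WT. Both Cbfb::MYH11 libraries were the highest, and no comparison passed by edgeR. Of the TPM of Cox7a1 and Cox7a2 together, Cox7a1 made up 1.68% to 4.95% in the MLL libraries, 8.79% and 11.96% in Cbfb::MYH11 and 1.88% and 0.144% in WT. Cox7a2l, a homolog of Cox7a2, had 136, 126 and 146 CPM in MLL::ENL, 171, 78.3 and 85.3 CPM in MLL::AF9, 188 and 330.5 CPM in Cbfb::MYH11 and 322 and 173 CPM in WT. Cox7a2l missed the threshold in MLL against Cbfb::MYH11, where its libraries did not overlap (log2 fold change −1.08, SE 0.35, adjusted p = 0.0501 from edgeR). It passed under 9 of 20 alternatives, DESeq2 included, and without 1 library the log2 fold change ran from −1.43 to −0.62.

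Of the common forms, Cox6b1 had 148, 158 and 126 CPM in MLL::ENL, 179.6, 116 and 112 CPM in MLL::AF9, 144 and 152 CPM in Cbfb::MYH11 and 326 and 134 CPM in WT. Cox7a2 had 150.0, 141 and 112 CPM in MLL::ENL, 134, 97.1 and 44.8 CPM in MLL::AF9, 97.3 and 79.8 CPM in Cbfb::MYH11 and 231 and 109 CPM in WT. For both genes MLL and Cbfb::MYH11 libraries overlapped and WT 1 was the highest. Cox7b had 128, 137 and 138 CPM in MLL::ENL, 136, 91.4 and 85.1 CPM in MLL::AF9, 140.5 and 127 CPM in Cbfb::MYH11 and 219.9 and 104 CPM in WT. Cox8a had 181, 223 and 240.1 CPM in MLL::ENL, 238, 155 and 174 CPM in MLL::AF9, 192 and 225 CPM in Cbfb::MYH11 and 459.9 and 179 CPM in WT. These again overlapped between MLL and Cbfb::MYH11, with WT 1 at the top, and none of the 4 passed in any comparison.

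Among the c-ring paralogs, whose mature proteins are the same, Atp5g2 supplied the most TPM, at 49.6%, 52.4% and 50.2% of the family in MLL::ENL tumors, 51.9%, 48.3% and 50.6% in MLL::AF9 tumors, 42.3% and 51.9% in Cbfb::MYH11 and 40.5% and 36.7% in WT. Atp5g3 held 27.2% to 36.4% in the MLL libraries, 38.5% and 33.4% in Cbfb::MYH11 and 39.8% and 40.9% in WT. Atp5g2 had 242, 267 and 333 CPM in MLL::ENL, 251, 221 and 220.3 CPM in MLL::AF9, 327 and 487 CPM in Cbfb::MYH11 and 525 and 218 CPM in WT. Atp5g1 had 77.5, 116 and 148 CPM in MLL::ENL, 72.1, 101 and 85.2 CPM in MLL::AF9, 162 and 159.5 CPM in Cbfb::MYH11 and 255 and 143 CPM in WT. For Atp5g1 the MLL libraries were all under Cbfb::MYH11, for Atp5g2 1 was not, and neither passed. RSEM split reads of Atp5g2 in all 10 libraries and of Atp5g1 in 6, so the division between these paralogs is less certain than their sum.

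Among 74 tested genes of 10 related lists (assembly factors, electron carriers, carriers of nucleotides and phosphate, cardiolipin synthesis, regulators, subunits named otherwise and subunits made from the mitochondrial genome), 10 were lower and 3 higher in MLL against Cbfb::MYH11 (edgeR; 12.4% and 13.2% of all genes). Of 25 complex IV assembly genes, 5 were lower, among them Lrpprc, which stabilizes mitochondrial mRNA, with 29.0, 47.7 and 45.2 CPM in MLL::ENL, 26.2, 55.7 and 39.7 CPM in MLL::AF9, 119.7 and 124 CPM in Cbfb::MYH11 and 46.4 and 76.1 CPM in WT. Both Cbfb::MYH11 libraries were above all others (log2 fold change −1.59, SE 0.30, adjusted p = 0.00475 from edgeR). The other 4 were Sco2 (−2.62) and Cox11 (−1.02), which deliver copper, Coa5 (−1.03) and Taco1 (−0.96), a translational activator of the Co1 mRNA, while 2 were higher, Coa4 (1.25) and Higd2a (1.09). Of 6 complex III assembly genes, Bcs1l, which inserts the Rieske protein, was lower (−0.92). Of 6 complex V genes, Atpif1, the inhibitor of ATP hydrolysis, was lower in MLL against Cbfb::MYH11 (−1.82, adjusted p = 0.00212 from edgeR) and in MLL::AF9 against WT (−1.90, adjusted p = 0.0306). Lrpprc and Atpif1 passed in MLL against Cbfb::MYH11 under all 20 alternatives. The calls of Sco2, Cox11, Coa5, Taco1, Coa4, Higd2a and Bcs1l were lost without Cbfb::MYH11 27, where Sco2 was at −1.82 (adjusted p = 0.193 from edgeR). The calls of Cox11, Taco1, Coa4, Higd2a and Bcs1l were also lost without other single libraries (13 to 17 of 20 alternatives passed).

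Atpif1 had 120.2, 130.2 and 174.5 CPM in MLL::ENL, 108, 105 and 101 CPM in MLL::AF9, 385 and 471 CPM in Cbfb::MYH11 and 553 and 228 CPM in WT. The Atpif1 call in MLL::AF9 against WT passed under 13 of 20 alternatives and was lost without WT 1, where the log2 fold change was −1.15 (adjusted p = 0.266 from edgeR). Of 14 regulators, 3 were lower in MLL against Cbfb::MYH11: Tfam, the transcription factor of the mitochondrial genome (−0.90), and the coactivators Ppargc1b (−2.19) and Pprc1 (−1.32). All 3 calls were lost without either Cbfb::MYH11 library, and Ppargc1b passed under only 10 of 19 alternatives. Pgs1, of cardiolipin synthesis, ran the other way, higher in MLL against Cbfb::MYH11 (1.52) and lower in Cbfb::MYH11 against WT (−1.34, adjusted p = 0.0152 from edgeR). Its call in MLL against Cbfb::MYH11 passed under all 20 alternatives, with log2 fold changes of 1.43 to 1.60. The call against WT was lost without either WT or either Cbfb::MYH11 library (adjusted p up to 0.0977), with log2 fold changes of −1.41 to −1.24. By edgeR 0 genes passed among 4 complex II assembly genes, 4 electron carriers, 3 nucleotide and phosphate carriers (1 lower by DESeq2) and 2 subunits whose names fall outside the rule in that comparison.

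The subunits of complexes III to V made from the mitochondrial genome gave other values than the nuclear ones. mt-Co1, the catalytic subunit of complex IV, had 41660, 15510 and 17370 CPM in MLL::ENL, 44170, 7750 and 8523 CPM in MLL::AF9, 22570 and 10760 CPM in Cbfb::MYH11 and 1989 and 3129 CPM in WT. All tumors lay above both WT libraries, and MLL::ENL NO and MLL::AF9 2 were the highest. Median log2 fold changes of the 6 genes against WT were 2.39 for MLL::ENL, 2.57 for MLL::AF9 and 2.17 for Cbfb::MYH11, and 0 of 6 passed by edgeR in any of these comparisons. In the same order of models the counts were 3, 3 and 2 at unadjusted p under 0.05, 3, 3 and 2 higher by DESeq2, and 1, 0 and 0 by limma-voom. Of all genes, 10.7%, 12.3% and 11.4% were higher at unadjusted p under 0.05 by edgeR. DESeq2 called 6.26%, 8.15% and 7.97% of all genes higher, and limma-voom 0.982%, 0.995% and 4.58%. Without WT 1 the medians were 2.39 for MLL::ENL, 2.40 for MLL::AF9 and 2.28 for Cbfb::MYH11, with 0 passing. In MLL against Cbfb::MYH11 their median was 0.35, against −0.38 for the nuclear genes.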

How the data were processed

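Genes, lists and tests were chosen with earlier results of these data known. The authors aligned reads to mm10 with STAR and quantified them with RSEM after FastQC, per the submitters' processing notes; versions, annotation and strandedness are not given in the sources used here. The deposited tables, 1 per library, hold expected counts, TPM (transcript abundance that the authors scaled for length and library total) and FPKM, which was not used. Deposited lengths and effective lengths gave the mean fragment length. The numbers 42 and 47 are interchanged between sample titles and table names of MLL::AF9, and each table was taken with the sample it is deposited under.

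Expected counts were rounded, filtered (filterByExpr, 14875 genes kept), scaled by TMM and tested with edgeR 4.0.16 (R 4.3.3) by its quasi-likelihood test in 1 fit of all 10 libraries with condition as the term and 6 residual degrees of freedom. Adjusted p are Benjamini-Hochberg over all genes, with a threshold of 0.05. SE is the log2 fold change divided by the square root of F. The paper names unpaired Student's t tests for its statistics in general and does not state a design for the RNA-seq test. P-values measure the spread between mice, with only 2 in WT and in Cbfb::MYH11, and CPM covers libraries of 12134917 to 20510574 counts. Alternatives were RLE and upper quartile scaling, no hemoglobin or mitochondrial transcripts, other filters (none, or 10 counts in every library), DESeq2 1.42.0, limma-voom (limma 3.58.1), only the groups compared, and leaving out each library. Fragment length class and effective length offsets were added after seeing the data. The fits were tested on simulated data. Values in every library are given for genes past the threshold, the gene with the highest mean TPM of each complex, catalytic or electron-carrying subunits, and subunits with alternative isoforms; the rest are given by counts and ranges. CCAAT and CACGTG were chosen after the windows were seen. Per-library overlap was judged in CPM. Promoter windows are RefSeq's.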

Additional observations from a re-analysis of the deposited data

Results flagged for a closer look

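For 7 of the 44 genes the models differed from one another beyond the spread between mice by edgeR. These make up 15.9% of the 44, near the 12.4% of all genes tested that were lower by the same rule. The log2 differences of MLL against Cbfb::MYH11 were −1.0 for Sdha, −1.06 for Cyc1 and −1.17 for Uqcrc2. In ATP synthase they were −1.23 for Atp5a1, −1.23 for Atp5b, −0.79 for Atp5d and −0.96 for Atp5g3. Since both were set against the same WT libraries, this is also the difference between their changes from WT. No group had the 4 libraries needed to look for a single outlying one.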

How the results depend on the processing

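Of 20 alternatives, the count of 7 genes lower in MLL against Cbfb::MYH11 left its range of 1.5 times only without Cbfb::MYH11 27, and leaving out 1 library gave 0 to 9. Genes higher in that comparison were 1 without a filter on low counts, 1 by DESeq2 and 0 to 1 without 1 library. Genes lower in MLL::AF9 against WT were 11 by DESeq2, 5 by limma-voom, 0 with only the groups compared in the fit and 0 to 2 without 1 library. In MLL::ENL against WT they were 7 by DESeq2, 1 by limma-voom and 1 without a filter. In Cbfb::MYH11 against WT they were 2 by DESeq2, 1 without a filter, 1 with only the groups compared and 0 to 1 without 1 library. In MLL::ENL against MLL::AF9, DESeq2 called 1 gene higher. The log2 fold change of Cyc1, Cbfb::MYH11 against WT, reversed to −0.026 with at least 10 counts in every library, to −0.175 without WT 2 and to −0.111 without Cbfb::MYH11 27 (range without 1 library −0.175 to 0.325). That of Atp5d, Cbfb::MYH11 against WT, reversed to 0.314 without WT 1 and 0.10 without Cbfb::MYH11 30 (range −0.325 to 0.314), and that of Atp5g3, Cbfb::MYH11 against WT, to 0.331 without WT 1 (range −0.718 to 0.331). The causes were not tested. No other printed fold change of a gene reversed. In MLL against Cbfb::MYH11, Uqcrc2, Cyc1, Atp5a1, Atp5b and Sdha passed under 19 of 20 alternatives, Atp5g3 under 15 and Atp5d under 11. Atp5o and Cyc1 in MLL::AF9 against WT passed under 11 and 9. No paired analysis was possible because each library came from a separate mouse and no label pairs mice across conditions. With 2 libraries in WT and in Cbfb::MYH11, small differences were not detectable, and a call there rests on both libraries.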
